A study of Mus musculus with 12 samples.

Results

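The 10 genes described here make up the route by which a cell shows peptides on MHC class I. They are the heavy chains H2-K1, H2-D1 and H2-T23, the light chain B2m, the peptide transporter subunits Tap1 and Tap2, the loading proteins Tapbp and Calr, the peptide-trimming enzyme Erap1 and the transactivator Nlrc5. They were chosen by name, for their place in this pathway, and are 10 of the 12699 genes in the expression table. Earlier results of these data were known when they and the other lists below were chosen. All 10 passed the filter on low values in both cultures.

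Proteasomes cut proteins of the cytosol into peptides, which the TAP transporter carries into the endoplasmic reticulum (ER). There Erap1 shortens them, and tapasin (Tapbp), calreticulin (Calr) and a disulfide isomerase hold the empty heavy chain with B2m until a peptide binds and the complex leaves for the cell surface, where CD8+ T cells read it. Nlrc5 is a cofactor that raises transcription of class I genes and of several of their partners, through factors bound at their promoters, and interferons raise most genes of the pathway. B cells show class I constitutively.

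RNA was sequenced from hCD2+ B cells sorted after 48 h of culture, in 12 libraries, each from a pool of 2 to 3 mice aged 8 to 12 weeks. In each culture 3 libraries came from CTCFfl/fl cells and 3 from CTCFfl/+ cells, both hemizygous for a Cre transgene. Resting splenic B cells were grown with T cells plus anti-CD3 (5 µg/ml) and anti-CD28 (1 µg/ml), here CD3/CD28 cultures, or with LPS (50 µg/ml) plus IL4 (5 ng/ml), here LPS/IL4 cultures. These concentrations and ages are those of the sample records, and the study's methods give others for LPS, IL4, anti-CD28 and age. Cre and the human CD2 reporter were both expressed from this transgene, which is active in activated B cells, so that deletion of Ctcf was limited to cells that expressed the transgene. Ctcf encodes a DNA-binding factor that anchors chromatin loops together with cohesin. The CTCFfl/+ littermates carried the same transgene and 1 floxed allele and were not wild type. The question was how loss of CTCF changed the RNA of activated B cells under each stimulus, and here how it changed the class I route.

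Values are CPM (read counts scaled to library size and normalized by the authors). The reads recovered per library ranged from 6934344 to 11227004 in CD3/CD28 and from 23469188 to 28130440 in LPS/IL4 libraries. Erap1, the lowest of the 10 genes per length, had 708 to 1088 reads per CD3/CD28 library and 1965 to 3114 per LPS/IL4 library. Ctcf averaged 74.7 ± 2.39 CPM in CTCFfl/fl and 130 ± 6.67 CPM in CTCFfl/+ cells of CD3/CD28 cultures, and 70.3 ± 7.63 CPM in CTCFfl/fl and 141 ± 6.01 CPM in CTCFfl/+ cells of LPS/IL4 cultures (SD, n = 3 each). Reads from outside the deleted segment are counted, and CTCFfl/+ cells have 1 floxed allele. Of the 9905 genes that averaged 5 CPM or more, 98.8% had means within 0.1 log2 units in both cultures, and so had all 10 class I genes (the largest difference was 0.04). Levels were therefore compared only within a culture. Whether whatever made the means nearly equal also changed spreads, recovered reads or genotype effects was not tested. Of 15 T cell markers, 5 (Cd3d, Cd3e, Cd4, Trac and Trbc2) were below 1 CPM in 6 of 6 CD3/CD28 libraries, while Cd8a had 1.65 to 2.60 CPM, Cd3g up to 3.53 CPM, Thy1 10.8 to 44.8 CPM and Lck 83.6 to 122 CPM. In the LPS/IL4 libraries Cd3e reached 3.05 CPM in 1 library and Cd4 was above 1 CPM in 2 of 6. As gene means were nearly equal in both cultures, these levels cannot show how many T cells were present in each. As RNA was measured in bulk, fewer cells of a type and less RNA per cell cannot be told apart. Each library is a pool of animals, and p-values measure the spread between these pools in the deposited values.

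Levels of the 10 genes were compared per kilobase of transcript. In CTCFfl/fl cells of CD3/CD28 cultures the order by mean CPM per kilobase was B2m (1622), H2-K1 (1503), H2-D1 (863), H2-T23 (380.0), Calr (301), Tap1 (296), Tapbp (162), Tap2 (89.7), Nlrc5 (37.6) and Erap1 (15.1). In the CTCFfl/+ cells the level per kilobase was 363 for Calr, 350 for H2-T23 and 265 for Tap1, so that Calr stood above H2-T23 there and below it in CTCFfl/fl cells. Libraries overlapped for the neighbours Calr and H2-T23 in CTCFfl/+ cells, and for B2m and H2-K1 and for Calr and Tap1 in CTCFfl/fl cells. Under LPS/IL4 the order was B2m, H2-K1, H2-D1, H2-T23, Calr, Tap1, Tapbp, Tap2, Nlrc5 and Erap1 in both genotypes. Libraries overlapped there for B2m and H2-K1 and for H2-T23 and Calr in CTCFfl/fl cells, and for Calr and Tap1 in CTCFfl/+ cells. B2m, H2-K1 and H2-D1 were thus the most abundant of the 10 in all 4 groups, and Nlrc5 and Erap1 the least. As gene means were nearly equal in both cultures, the order under LPS/IL4 is not independent of that under CD3/CD28. Whether these are the levels each culture had by itself cannot be told from such values.

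In CD3/CD28 cultures 2 members of the pathway fell upon loss of CTCF, and 0 of the 10 rose. The fallers were Erap1, to 77.8% of the CTCFfl/+ level, and Calr, to 82.9%, both of which act on peptides or heavy chains inside the ER. Across the 12070 genes tested, limma called 18.6% (9.88% higher and 8.76% lower in CTCFfl/fl), so that 2 of 10 was close to the background share. On recovered reads edgeR called 2 of the 10 genes (18.6% of all genes) and DESeq2 called 2 (16%), and 4 had an unadjusted p under 0.05 in limma (33.9%). The heavy chains, B2m, Tap1, Tap2, Tapbp and Nlrc5 did not pass the test, and the median log2 fold change of the 10 genes was 0.00, against 0.01 over all genes tested.

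Erap1, the aminopeptidase that trims peptides to the length class I binds, had 82.3, 86.1 and 86.4 CPM in the CTCFfl/fl libraries, against 114, 112 and 102 CPM in the CTCFfl/+ libraries. The highest CTCFfl/fl value was under the lowest CTCFfl/+ value. Its log2 fold change was -0.36 (SE 0.07, 95% confidence interval -0.51 to -0.21, adjusted p = 0.00687 from limma), and it was called under all 17 alternatives tried. Erap1 lies on chromosome 13 of GRCm38 from 74639568 to 74693201, on the plus strand, and overlaps Cast on the other strand. Cast, which encodes the calpain inhibitor calpastatin and is named for this overlap, averaged 66.1 CPM in CTCFfl/fl and 52.0 CPM in CTCFfl/+ libraries and rose (log2 fold change 0.34, SE 0.10, adjusted p = 0.0415 from limma). The library kit does not mark strand, so that reads of the shared stretch cannot be told apart.

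Calr, a chaperone of newly made glycoproteins that also belongs to the peptide-loading complex, had 693, 614 and 666 CPM in the CTCFfl/fl libraries, against 787, 828 and 764 CPM in the CTCFfl/+ libraries. The genotypes did not overlap. The log2 fold change was -0.27 (SE 0.06, 95% confidence interval -0.41 to -0.13, adjusted p = 0.0158 from limma). This call depended on the setting, since the adjusted p from limma was 0.0554 without CTCFfl/+ replicate 1, 0.0613 without CTCFfl/+ replicate 2 and 0.0780 without the intensity trend. Calr lies on chromosome 8 from 84841850 to 84846934, on the minus strand, 20.8 Mb from the start of Ctcf on the same chromosome.

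**Figure D1:**
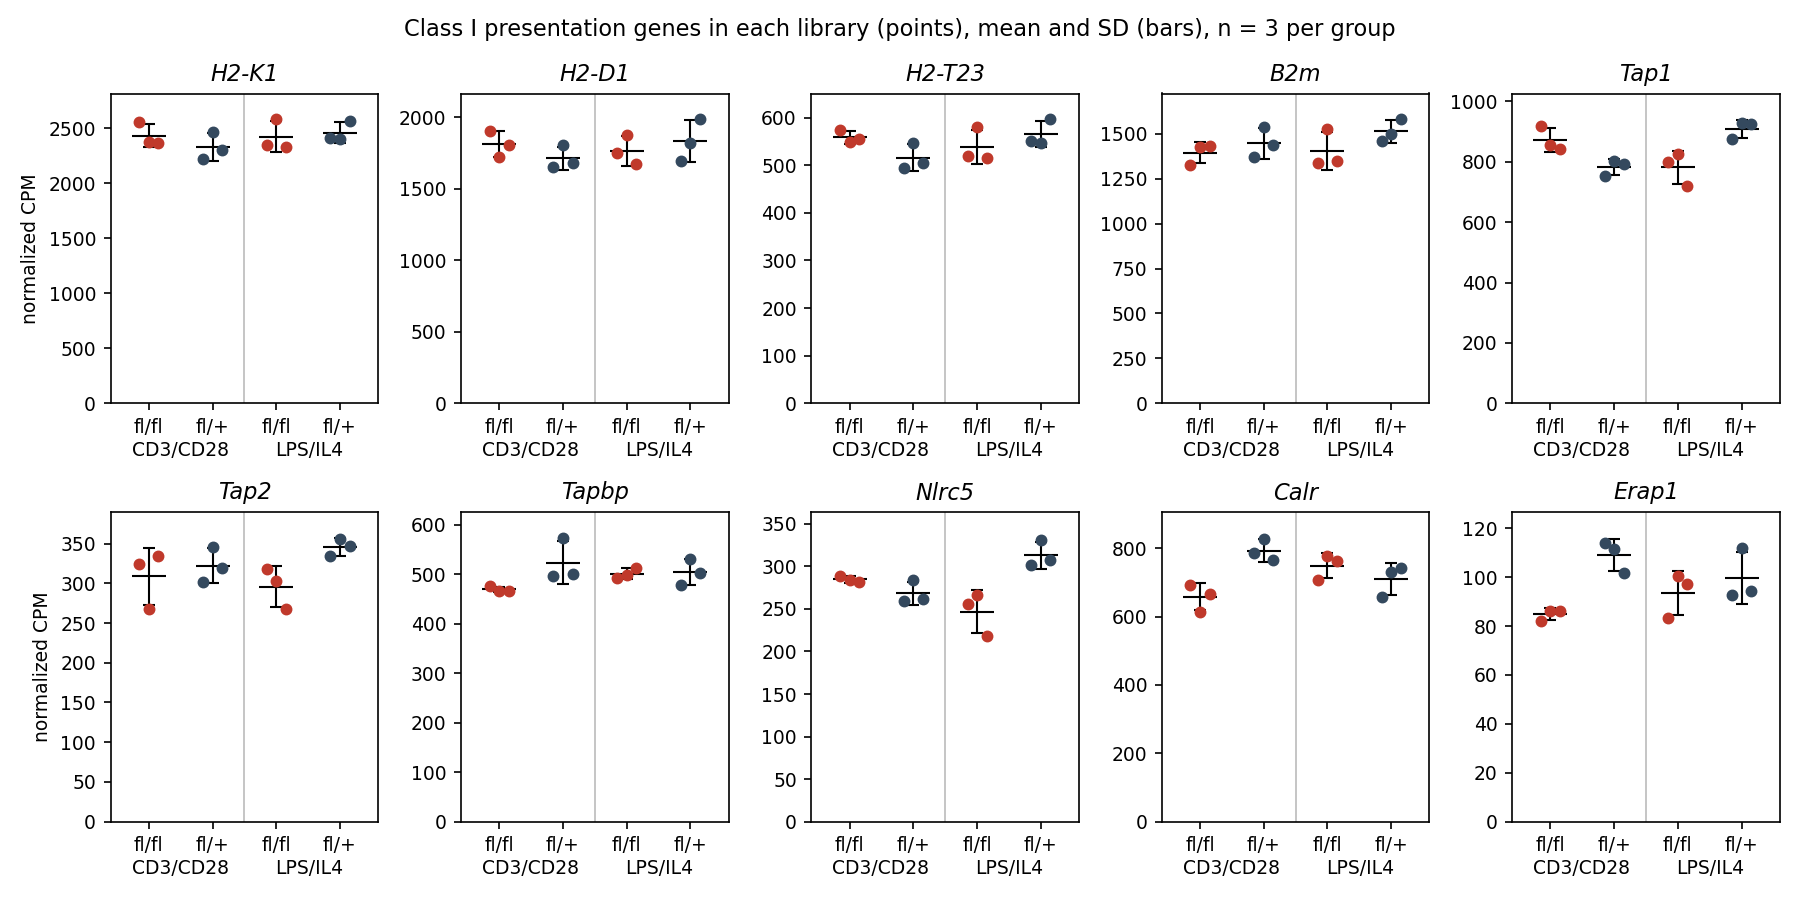
CPM of the 10 class I presentation genes (y axis, from 0) in each library (points), by genotype and culture, with the mean and SD of 3 libraries as bars. In CD3/CD28 cultures every CTCFfl/fl point of Erap1 (82.3 to 86.4) and Calr (614 to 693) lies below every CTCFfl/+ point, while in LPS/IL4 cultures those genes overlap.

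The classical heavy chains H2-K1 and H2-D1, which present peptides to CD8+ T cells, overlapped between genotypes. H2-K1 had 2557, 2374 and 2370.2 CPM in the CTCFfl/fl libraries, against 2219, 2471 and 2306 CPM in the CTCFfl/+ libraries. Its log2 fold change was 0.06, with a 95% confidence interval of -0.08 to 0.21, and it was -0.05 under quantile normalization. For H2-D1 the values were 1907, 1724 and 1809 CPM in the CTCFfl/fl libraries, against 1651, 1806 and 1682 CPM in the CTCFfl/+ libraries, with a log2 fold change of 0.08 (95% confidence interval -0.06 to 0.22). Class I heavy chains are near-identical copies, and reads that fit several of them were divided by the authors' estimation, so that single heavy chains are uncertain.

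H2-T23, the nonclassical chain Qa-1 that displays peptides to natural killer cell receptors, had 575, 549 and 554 CPM in the CTCFfl/fl libraries, against 494, 548 and 506 CPM in the CTCFfl/+ libraries. The genotypes were apart by a narrow margin, and the log2 fold change of 0.12 (SE 0.06) did not pass the test (adjusted p = 0.193 from limma). B2m, the light chain that all these heavy chains need, had 1328, 1428 and 1429.6 CPM in the CTCFfl/fl libraries, against 1369, 1541 and 1436 CPM in the CTCFfl/+ libraries. The genotypes overlapped, and the log2 fold change was -0.05 (95% confidence interval -0.20 to 0.09).

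Tap1 had 919, 857 and 843 CPM in the CTCFfl/fl libraries, against 752, 804 and 791 CPM in the CTCFfl/+ libraries. Every CTCFfl/fl library was higher, at 112% of the CTCFfl/+ mean, yet the log2 fold change of 0.16 (SE 0.06, unadjusted p = 0.0232) did not pass adjustment in limma (adjusted p = 0.0878). Tap2, the other subunit of the transporter, had 325, 267 and 334 CPM in the CTCFfl/fl libraries, against 301, 346 and 319 CPM in the CTCFfl/+ libraries. Its libraries overlapped, and CTCFfl/fl replicate 2 was the lowest of the 6. The log2 fold change of Tap2 was -0.07 with all libraries and 0.03 without CTCFfl/fl replicate 2, so that its sign rests on that library.

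Tapbp, or tapasin, which bridges the transporter and the heavy chain, had 476, 467 and 466 CPM in the CTCFfl/fl libraries, against 496, 574 and 501 CPM in the CTCFfl/+ libraries. The genotypes did not overlap, and the log2 fold change of -0.15 (SE 0.07, unadjusted p = 0.0413) did not pass adjustment in limma (adjusted p = 0.129). Nlrc5 had 289, 284 and 282 CPM in the CTCFfl/fl libraries, against 259, 284 and 262 CPM in the CTCFfl/+ libraries. CTCFfl/+ replicate 2 lay among the CTCFfl/fl values, and the log2 fold change was 0.09 (95% confidence interval -0.04 to 0.22). In all, genotypes did not overlap for 5 of the 10 genes (Erap1, Calr, Tapbp, H2-T23 and Tap1), against 39.6% of all genes tested. Of these, 2 lay above the CTCFfl/+ libraries (20% of all genes) and 3 below (19.5%). An exact permutation test of 3 libraries against 3 cannot go below p = 0.1, which these 5 genes reached.

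In LPS/IL4 cultures none of the 10 genes passed the test. Limma called 0.0334% of the 11962 genes tested, 4 genes in all (Ctcf, Carmil2, Spata13 and Serpina3f, named because they are so few), each lower in CTCFfl/fl cells. None of the 10 class I genes was called by edgeR's quasi-likelihood test or DESeq2 on recovered reads either (0.0334% and 0.309% of all genes), and 3 had an unadjusted p under 0.05 in limma (Nlrc5, Tap2 and Tap1), against 6.65% of all genes tested. Of the 10 fold changes, 9 were below 0, against 6028 of 11962 over all genes tested. Their median was -0.08 on the log2 scale, against 0.00 over all genes tested.

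Nlrc5 had the largest shift of the 10 genes. It had 255, 267 and 218 CPM in the CTCFfl/fl libraries, against 301, 331 and 307 CPM in the CTCFfl/+ libraries. The genotypes did not overlap, and CTCFfl/fl replicate 3 was the lowest. The CTCFfl/fl mean was 78.8% of the CTCFfl/+ mean, and the log2 fold change of -0.35 (SE 0.09, 95% confidence interval -0.55 to -0.15, unadjusted p = 0.00201) had an adjusted p of 0.338 in limma, with a range of 0.0905 to 0.998 over 17 alternatives. Nlrc5 lies on chromosome 8 from 94434356 to 94527272, on the plus strand, 11.2 Mb from Ctcf.

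Tap1 had 799.8, 826 and 721 CPM in the CTCFfl/fl libraries, against 876, 928 and 926 CPM in the CTCFfl/+ libraries. Tap2 had 318, 302 and 268 CPM in the CTCFfl/fl libraries, against 334, 356 and 347 CPM in the CTCFfl/+ libraries. Both transporter subunits were thus lower in every CTCFfl/fl library, and lowest in replicate 3, which was also lowest for Nlrc5. The log2 fold changes were -0.22 (SE 0.09) for Tap1 and -0.23 (SE 0.09) for Tap2, neither past adjustment (adjusted p = 0.670 and 0.633 from limma). These 3 genes were the ones whose genotypes did not overlap, against 11% of all genes tested, and all 3 lay below the CTCFfl/+ libraries (5.42% of all genes below, 5.62% above).

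The other 7 genes overlapped between genotypes in LPS/IL4 cultures. B2m had 1338, 1525 and 1347 CPM in the CTCFfl/fl libraries, against 1459.9, 1497 and 1583 CPM in the CTCFfl/+ libraries. Its log2 fold change was -0.11 (95% confidence interval -0.32 to 0.10), and for the heavy chains it was -0.02 (H2-K1), -0.05 (H2-D1) and -0.07 (H2-T23). Erap1 had 83.3, 100.4 and 97.1 CPM in the CTCFfl/fl libraries, against 92.7, 112 and 94.4 CPM in the CTCFfl/+ libraries. Calr had 706, 776 and 762 CPM in the CTCFfl/fl libraries, against 656, 730 and 741 CPM in the CTCFfl/+ libraries, and was the 1 gene of the 10 with a fold change above 0 (log2 0.08, 95% confidence interval -0.11 to 0.27). Both genes that fell in CD3/CD28 cultures were therefore without a call here, with log2 fold changes of -0.09 for Erap1 and 0.08 for Calr. Tapbp, at -0.01, stayed within 0.19 on the log2 scale by its interval.

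**Figure D2:**
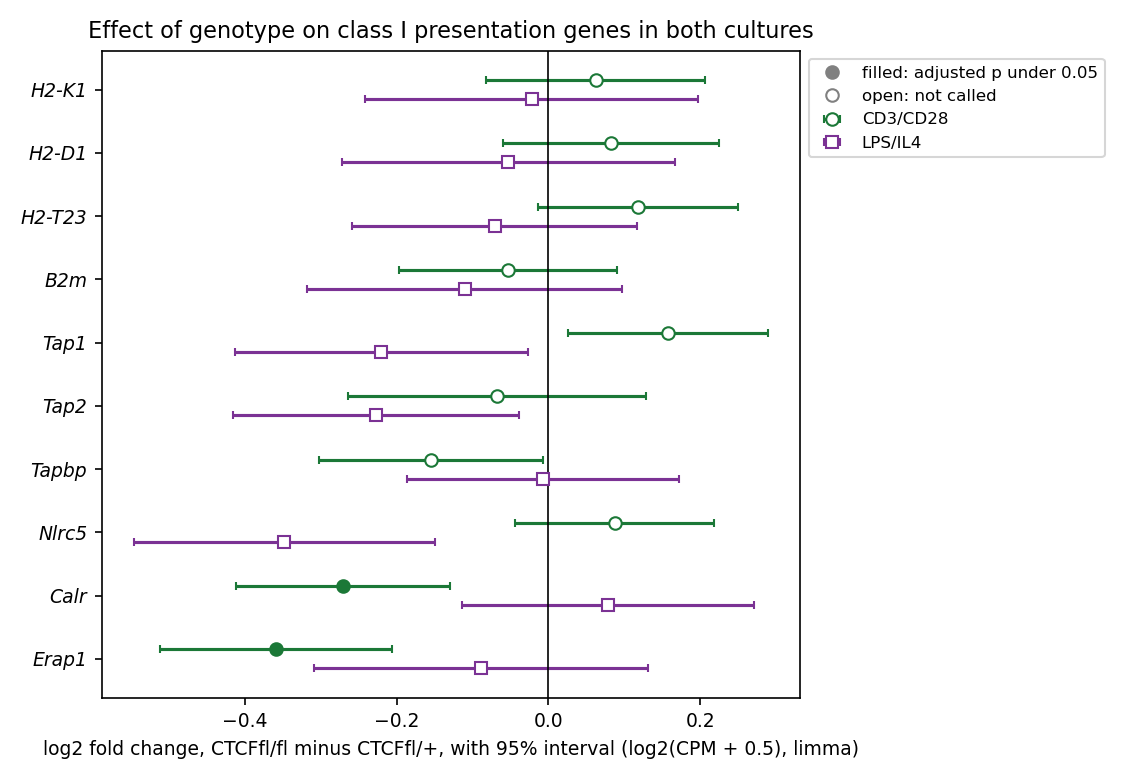
Log2 fold change of CTCFfl/fl over CTCFfl/+ (x axis, log2(CPM + 0.5)) for each gene in CD3/CD28 (circles) and LPS/IL4 (squares) cultures, with 95% confidence intervals and filled symbols where the adjusted p was under 0.05. The filled symbols are Erap1 (-0.36) and Calr (-0.27) in CD3/CD28, and Nlrc5 and Tap1 have the 2 cultures on opposite sides of 0.

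Whether loss of CTCF acted differently in the cultures was tested with an interaction term over all 12 libraries. Limma called 7.57% of the 11847 genes tested (3.88% with a higher effect in CD3/CD28 and 3.69% with a lower one), and 2 of the 10 class I genes, Nlrc5 and Tap1, both higher. On recovered reads edgeR called 2 of the 10 (6.73% of all genes) and DESeq2 3 (9.61%), and 4 had an unadjusted p under 0.05 in limma (23.1%). The log2 fold change of Nlrc5 was 0.09 under CD3/CD28 and -0.35 under LPS/IL4 stimulation, giving a difference of 0.43 (SE 0.11, 95% confidence interval 0.21 to 0.66, adjusted p = 0.0262 from limma). That of Tap1 was 0.16 under CD3/CD28 and -0.22 under LPS/IL4 stimulation, a difference of 0.38 (SE 0.10, 95% confidence interval 0.17 to 0.59, adjusted p = 0.0312 from limma). Neither gene was called within a culture, so that these calls rest on effects of opposite sign. Stimulus and processing batch cannot be told apart, because the labels say the cultures were handled as separate batches. Whether the near-equal gene means of the cultures affected these differences was not tested.

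Both calls were close to the threshold. For Nlrc5 the adjusted p from limma was 0.0677 without CTCFfl/+ replicate 1, 0.0706 without CTCFfl/+ replicate 3 and 0.0510 without CTCFfl/fl replicate 2 of the CD3/CD28 libraries, and 0.0550 without CTCFfl/+ replicate 2 and 0.0507 without CTCFfl/fl replicate 3 of the LPS/IL4 libraries. For Tap1 it was 0.0855, 0.0505 and 0.0707 without CTCFfl/+ replicates 1, 2 and 3, 0.0657 and 0.0560 without CTCFfl/fl replicates 1 and 2 of the CD3/CD28 libraries, and 0.0561, 0.0556 and 0.0708 without CTCFfl/+ replicates 2 and 3 and CTCFfl/fl replicate 3 of the LPS/IL4 libraries. Without the intensity trend it was 0.0723 for Nlrc5 and 0.0731 for Tap1. With the replicate block the adjusted p from limma was 0.0479 for Nlrc5 and 0.0996 for Tap1. The difference itself stayed above 0 throughout, from 0.35 to 0.49 for Nlrc5 and from 0.28 to 0.42 for Tap1 over 22 alternatives.

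Calr had the opposite pattern, with a difference of -0.35 (SE 0.10, 95% confidence interval -0.57 to -0.13) just outside the threshold (adjusted p = 0.0518 from limma). It was called in 5 of 22 alternatives, among them DESeq2 on recovered reads (adjusted p = 0.0170). For Erap1 the difference was -0.27 (SE 0.13, adjusted p = 0.212 from limma), so that its fall was not shown to be particular to CD3/CD28 cultures. The heavy chains and B2m had differences of 0.06 to 0.19 on the log2 scale, with none called, and under quantile normalization that of B2m was -0.02.

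The summed level of interferon-induced genes was lower in every CTCFfl/fl library of the LPS/IL4 cultures, as Nlrc5 and Tap1 were. The summed CPM of 19 such genes was 1536, 1596 and 1319 in the CTCFfl/fl libraries, against 1774, 2278 and 2009 in the CTCFfl/+ libraries. Replicate 3 of CTCFfl/fl, lowest for Nlrc5, Tap1 and Tap2, was also lowest for this sum. In CD3/CD28 cultures the sum was 1573, 1567 and 1579 in the CTCFfl/fl libraries, against 1842, 1949.99 and 1816 in the CTCFfl/+ libraries, whereas Nlrc5 and Tap1 were not lower in CTCFfl/fl there. Gbp2 alone averaged 497 CPM in CTCFfl/fl and 724 CPM in CTCFfl/+ libraries of the LPS/IL4 cultures. Single genes went both ways. Under LPS/IL4 13 of 18 tested had fold changes below 0 and 5 above, and under CD3/CD28 16 of 19 were below and 3 above. Over all genes tested, 6028 of 11962 were below 0 under LPS/IL4 and 5954 of 12070 under CD3/CD28. The part of interferon signalling in these values was not tested.

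**Figure D3:**
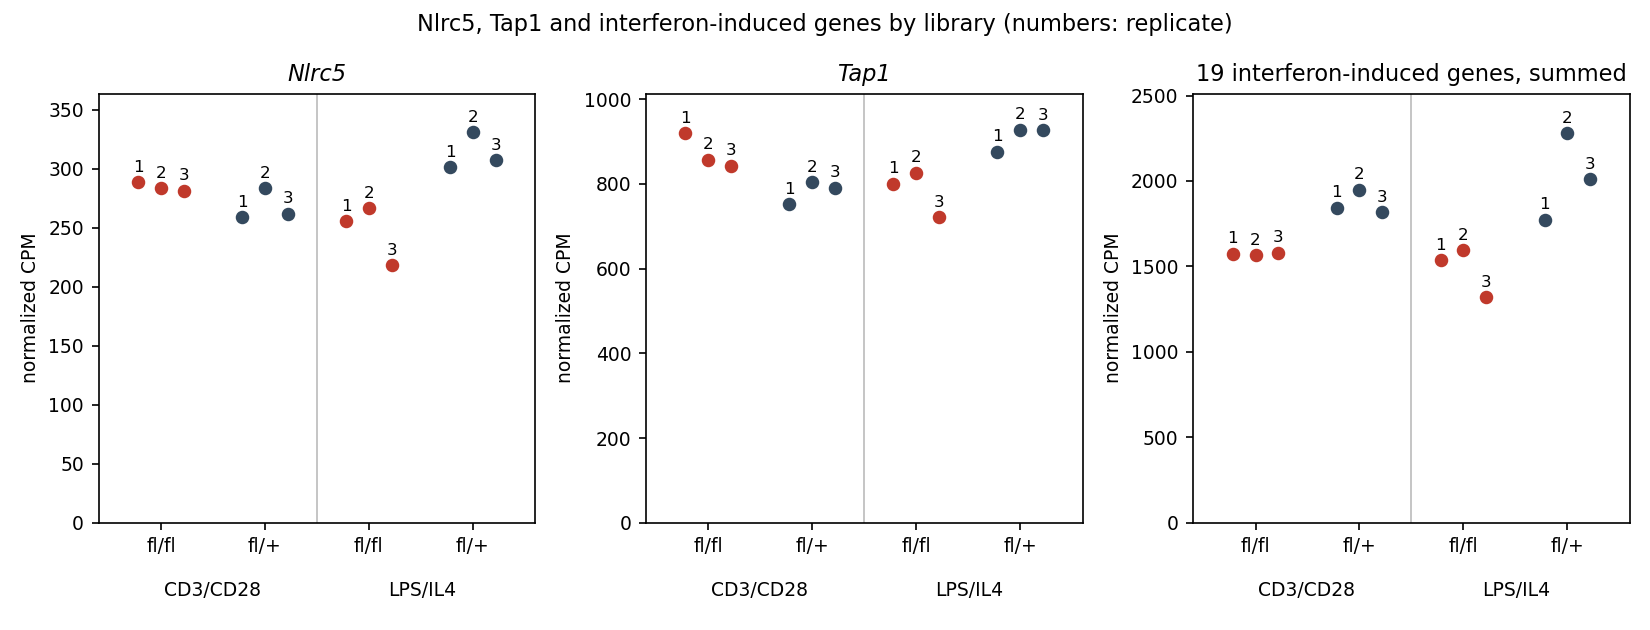
CPM (y axis, from 0) of Nlrc5, Tap1 and the sum of 19 interferon-induced genes in each library, with the replicate number beside each point. In LPS/IL4 cultures CTCFfl/fl replicate 3 is lowest in all 3 panels (218, 721 and 1319 CPM), and in CD3/CD28 cultures only the interferon sum is lower in CTCFfl/fl.

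Ratios within a library do not depend on how libraries were scaled. The ratio of H2-K1 to B2m was 1.93, 1.66 and 1.66 in the CTCFfl/fl libraries, against 1.62, 1.60 and 1.61 in the CTCFfl/+ libraries of CD3/CD28 cultures. Under LPS/IL4 it was 1.76, 1.70 and 1.73 in the CTCFfl/fl libraries, against 1.65, 1.60 and 1.62 in the CTCFfl/+ libraries. H2-K1 was thus higher relative to B2m in every CTCFfl/fl library of both cultures (exact permutation test, two-sided, p = 0.1 in each, the smallest possible), by a small margin and with 1 CD3/CD28 library well above the rest. The ratio of H2-D1 to B2m averaged 1.30 ± 0.12 in CTCFfl/fl and 1.18 ± 0.02 in CTCFfl/+ cells of CD3/CD28 cultures, and 1.26 ± 0.04 in CTCFfl/fl and 1.21 ± 0.05 in CTCFfl/+ cells of LPS/IL4 cultures (SD, n = 3 each), with overlap in LPS/IL4 cultures only. For Tap1 to B2m the ratio averaged 0.627 in CTCFfl/fl and 0.541 in CTCFfl/+ cells of CD3/CD28 cultures, where genotypes were apart, and 0.558 in CTCFfl/fl and 0.602 in CTCFfl/+ cells of LPS/IL4 cultures, where they overlapped. Since 4 ratios were taken in 2 cultures and no exact p could go below 0.1, none passes a threshold of 0.05. The ratio of Tap2 to B2m overlapped in both cultures.

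In some libraries most of the 10 genes lay on the same side of their group mean. In CTCFfl/+ replicate 2 of the CD3/CD28 cultures 10 of 10 genes were above the mean of their group (median deviation 0.08 on the log2 scale), and in replicates 1 and 3 only 1 of 10 was. In the CTCFfl/fl libraries of the same cultures 8, 2 and 4 of 10 were. With LPS/IL4, 9 of 10 were above it in CTCFfl/fl replicate 2, against 3 of 10 in replicates 1 and 3, and 0, 6 and 7 of 10 in CTCFfl/+ replicates 1, 2 and 3. These shifts, up to 0.17 for a single gene among the CTCFfl/+ libraries and 0.20 among the CTCFfl/fl libraries in absolute size, were as large as most of the genotype effects. They are given as a description, as the genes of a library share its scaling.

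**Figure D4:**
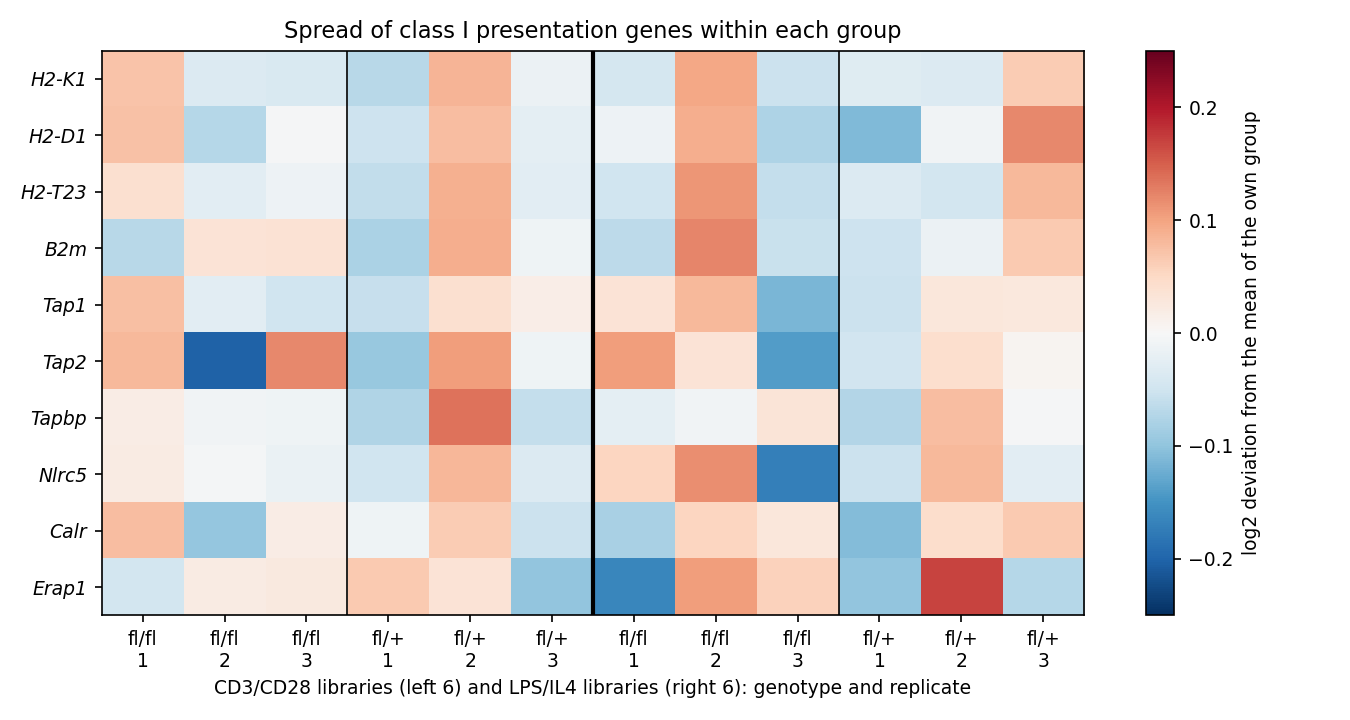
Deviation of each gene (rows) from the mean of its own group on the log2 scale (colour, red above and blue below) in the 12 libraries (columns). The column of CTCFfl/+ replicate 2 in CD3/CD28 is above its group mean for 10 of 10 genes, and the lowest cell is Tap2 in CTCFfl/fl replicate 2 of CD3/CD28 (-0.20).

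Beyond these 10 genes, the pathway was followed through lists of its other parts. In CD3/CD28 cultures 4 of 10 ER folding and loading partners fell and 0 rose (against 9.88% higher and 8.76% lower over all genes tested), with a median log2 fold change of -0.19 against 0.01. Canx, or calnexin, the membrane-bound relative of Calr that receives new heavy chains, averaged 507 ± 32.3 CPM in CTCFfl/fl and 617 ± 31.9 CPM in CTCFfl/+ cells (SD, n = 3 each), with a log2 fold change of -0.28 (SE 0.07, adjusted p = 0.0150 from limma). Hsp90b1 and Hspa5, chaperones of the ER, had log2 fold changes of -0.26 and -0.24, and Sec61a1, the channel through which proteins enter the ER, had -0.22. Hspa5 was nearest to the threshold (adjusted p = 0.0490 from limma) and stayed called in 6 of 17 alternatives, against 14 for Canx, 13 for Hsp90b1 and 11 for Sec61a1. The number called in the list was 0 without CTCFfl/+ replicate 1, 1 without CTCFfl/+ replicate 2 or 3, 2 without CTCFfl/fl replicate 1 or 2, 6 without CTCFfl/fl replicate 3 and 0 without the intensity trend.

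Of the cytosolic peptidases, which cut peptides before transport, 1 of 8 fell and 0 rose, against 9.88% higher and 8.76% lower over all genes tested (median -0.11). This was Lap3, a leucine aminopeptidase, at 60.9 ± 2.68 CPM in CTCFfl/fl and 79.4 ± 4.87 CPM in CTCFfl/+ cells (SD, n = 3 each), with a log2 fold change of -0.38 (adjusted p = 0.00763 from limma). The immunoproteasome and PA28 genes, which shape the peptides that class I receives, were without a call (0 of 5, fold changes from -0.07 to 0.11). Among them Psmb9 overlaps Tap1 by 212 bases on the other strand, and averaged 395 ± 10.5 CPM in CTCFfl/fl and 366 ± 16.9 CPM in CTCFfl/+ cells of CD3/CD28 cultures, and 366 ± 34.0 CPM in CTCFfl/fl and 407 ± 9.64 CPM in CTCFfl/+ cells of LPS/IL4 cultures. The sign of its fold change was that of Tap1 in both cultures (log2 0.11 and -0.16). As the library kit does not mark strand, reads of the stretch shared by Psmb9 and Tap1 cannot be told apart.

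Of 15 other class I and class I-like chains, 1 rose and 1 fell in CD3/CD28 cultures, against 9.88% higher and 8.76% lower over all genes tested. The median was 0.16, and 12 fold changes were above 0, against 6116 of 12070 over all genes tested. Reads that fit several of these chains were divided by estimation here too, so that their signs may not be independent. Mr1, which presents vitamin metabolites to MAIT cells, averaged 8.47 ± 0.85 CPM in CTCFfl/fl and 4.55 ± 1.28 CPM in CTCFfl/+ cells (SD, n = 3 each), with a log2 fold change of 0.85 (adjusted p = 0.0149 from limma). The difference between cultures was called for Mr1 as well (0.99, adjusted p = 0.0495 from limma). H2-M5, a class I gene of the distal M region, averaged 7.72 ± 1.43 CPM in CTCFfl/fl and 15.3 ± 4.65 CPM in CTCFfl/+ cells (SD, n = 3 each), with a log2 fold change of -0.92 (adjusted p = 0.0137 from limma). Both were low beside H2-K1 and H2-D1.

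Among 15 transcription factors that act at class I promoters, 2 rose and 2 fell in CD3/CD28 cultures, against 9.88% higher and 8.76% lower over all genes tested (median 0.10). Nfkb1, the NF-kB subunit p50 that binds the class I enhancer, averaged 366 ± 28.6 CPM in CTCFfl/fl and 497 ± 12.3 CPM in CTCFfl/+ cells (SD, n = 3 each), with a log2 fold change of -0.44 (adjusted p = 0.00222 from limma). Creb1, a member of the complex that recruits Nlrc5, fell as well (-0.32, adjusted p = 0.0235 from limma). Irf2 and Irf8, interferon regulatory factors, rose by 0.28 and 0.22 on the log2 scale (adjusted p = 0.0411 and 0.0463 from limma). These changes thus ran in both directions, and Irf8 stayed called in 6 of 17 alternatives.

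Of 19 interferon-induced genes, 5 fell and 0 rose in CD3/CD28 cultures, against 9.88% higher and 8.76% lower over all genes tested, with a median of -0.23. Gbp2, Iigp1, Tgtp1 and Gbp7, GTPases of cell-autonomous defence, had log2 fold changes of -0.36, -0.69, -0.32 and -0.25. In LPS/IL4 cultures the list had 0 calls of 18 tested in limma and a median of -0.19, with Iigp1 at 11.5 ± 10.8 CPM in CTCFfl/fl and 65.6 ± 31.2 CPM in CTCFfl/+ cells (SD, n = 3 each, log2 fold change -2.79, adjusted p = 0.0535 from limma). Iigp1 was called in 6 of 17 alternatives there. None of the other lists had a call in LPS/IL4 cultures. The lowest p of each belonged to H2-M5 (log2 fold change 0.41), Psmb9 (-0.16), Tapbpl (-0.23), Lnpep (-0.46) and Irf1 (-0.37). Irf1, the factor that interferon-gamma induces and that acts on Nlrc5, Tap1 and class I promoters, averaged 195 ± 33.8 CPM in CTCFfl/fl and 249.99 ± 0.23 CPM in CTCFfl/+ cells (SD, n = 3 each, adjusted p = 0.399 from limma), and its difference between cultures was called (0.51, adjusted p = 0.0487 from limma).

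**Figure D5:**
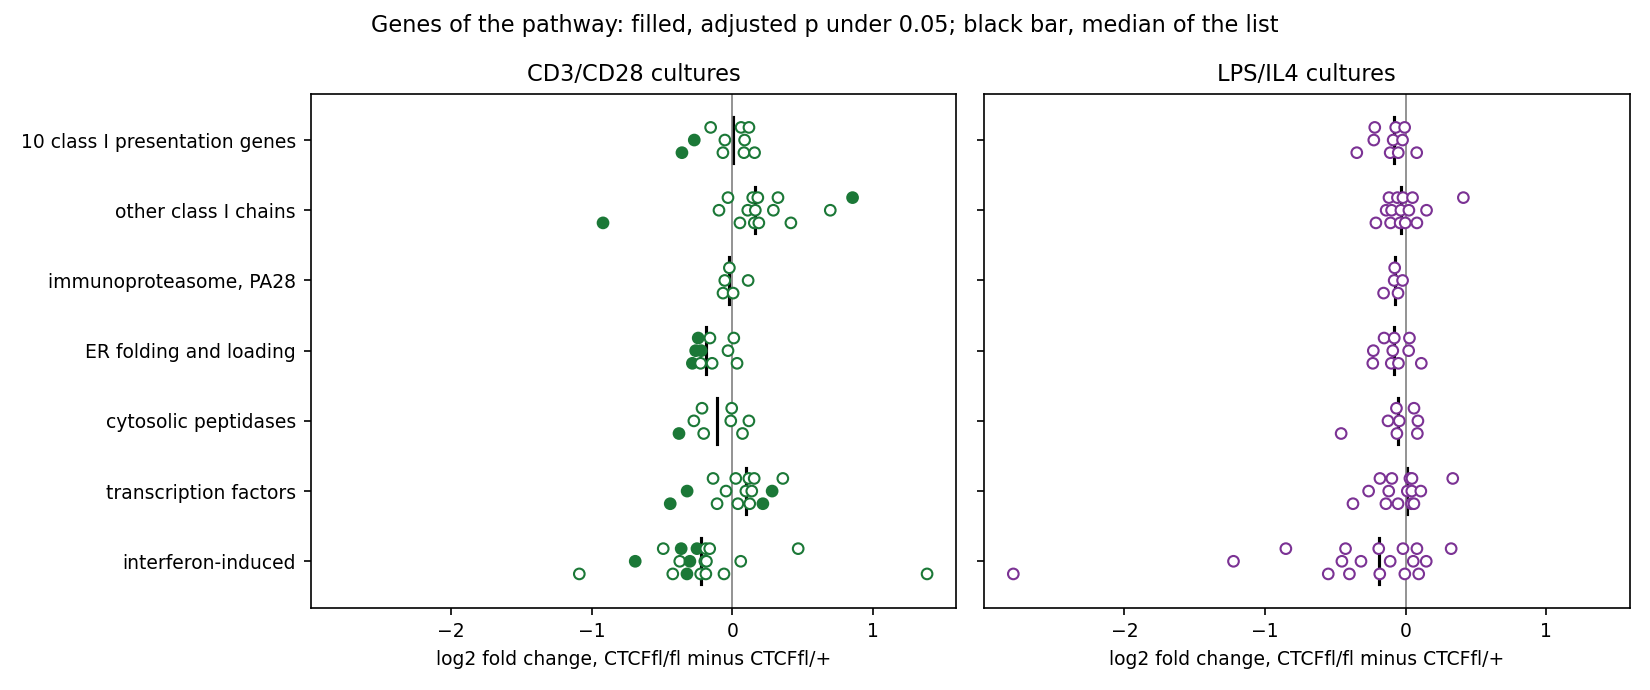
Log2 fold change of CTCFfl/fl over CTCFfl/+ (x axis) of the genes of each list (points, filled where the adjusted p was under 0.05), in CD3/CD28 (left) and LPS/IL4 (right) cultures, with the list median as a black bar. In CD3/CD28 the ER list has its median at -0.19 with 4 filled points, and in LPS/IL4 no point is filled.

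Markers of cell types and states were counted in CD3/CD28 cultures, where 9.88% of all genes tested rose and 8.76% fell, and their part in the class I results was not tested. Of 10 myeloid markers 6 had values and 5 were tested. Lyz2, Csf1r, S100a8 and S100a9 had no values, and Adgre1 was below 1 CPM in 4 of 6 libraries. Itgam, Tyrobp, Ctss and Cst3 rose (4 of 5 tested). The summed level of the 6 was 279 to 294 CPM in CTCFfl/fl and 203 to 237 CPM in CTCFfl/+ libraries. Most of it was Ctss, which B cells also express. Of the plasma cell markers 2 of 6 rose (Sdc1 and Prdm1, log2 fold changes 0.81 and 1.27). Of the others, Xbp1 and Irf4 had fold changes below 0 (-0.22 and -0.21) without a call (adjusted p = 0.0891 and 0.0879 from limma). The summed level of these markers was 821 to 977 CPM in CTCFfl/fl and 818 to 891 CPM in CTCFfl/+ libraries. Of the B cell markers 4 of 8 rose (Blnk, Cd79a, Cd22 and Cd79b), with a sum of 4582 to 4829 CPM in CTCFfl/fl and 3979 to 4403 CPM in CTCFfl/+ libraries. Of the T cell markers 10 of 15 were tested, with Ctla4 and Cd3g higher and Thy1 lower, and a sum of 183 to 218 CPM in CTCFfl/fl and 172 to 192 CPM in CTCFfl/+ libraries. No marker was called by limma in LPS/IL4 cultures, and the lowest p values of the lists belonged to Ctla4 (log2 fold change -0.63), Itgam (0.34), Sdc1 (0.62) and Ms4a1 (0.31).

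The promoters of 8 of the 10 genes were taken from RefSeq (GRCm38.p6), as the 250 bases before the RefSeq start. Tap2 and Nlrc5 were not matched. This start was within 3 bases of the GENCODE gene start for H2-K1, B2m, Tap1 and Calr, and lay inside the GENCODE gene by 154 bases for H2-T23, 285 for Erap1, 364 for H2-D1 and 3579 for Tapbp, so that the windows of these 4 genes lie in part or whole within the gene as positioned here. The promoters were searched on both strands for 6 motifs of class I regulation and CTCF, and the share of 32851 promoters of that length with a match is given beside each. The sequences of 5 are shown, 5′ to 3′ along the gene, with every motif match in capitals. Erap1 and Calr are shown as the genes that fell, Tap1 as a gene whose effect differed between cultures, and H2-K1 and B2m as the heavy and light chain, for which no change was detected.
H2-K1, chr17:34000348-34000597, minus strand: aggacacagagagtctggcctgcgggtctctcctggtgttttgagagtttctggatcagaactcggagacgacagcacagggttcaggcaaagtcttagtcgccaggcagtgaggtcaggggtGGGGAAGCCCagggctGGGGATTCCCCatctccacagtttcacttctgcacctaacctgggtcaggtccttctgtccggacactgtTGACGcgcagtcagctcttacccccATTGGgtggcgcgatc
B2m, chr2:122147437-122147686, plus strand: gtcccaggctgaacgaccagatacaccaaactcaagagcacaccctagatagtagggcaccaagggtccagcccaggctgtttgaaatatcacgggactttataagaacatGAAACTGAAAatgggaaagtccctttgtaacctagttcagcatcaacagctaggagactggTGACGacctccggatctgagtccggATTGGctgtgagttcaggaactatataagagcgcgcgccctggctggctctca
Tap1, chr17:34187306-34187555, plus strand: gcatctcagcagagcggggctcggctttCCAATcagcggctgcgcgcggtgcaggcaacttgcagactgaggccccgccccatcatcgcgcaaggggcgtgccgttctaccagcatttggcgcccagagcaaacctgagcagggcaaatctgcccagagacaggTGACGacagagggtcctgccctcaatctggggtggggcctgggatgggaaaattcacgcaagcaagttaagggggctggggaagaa
Calr, chr8:84846932-84847181, minus strand: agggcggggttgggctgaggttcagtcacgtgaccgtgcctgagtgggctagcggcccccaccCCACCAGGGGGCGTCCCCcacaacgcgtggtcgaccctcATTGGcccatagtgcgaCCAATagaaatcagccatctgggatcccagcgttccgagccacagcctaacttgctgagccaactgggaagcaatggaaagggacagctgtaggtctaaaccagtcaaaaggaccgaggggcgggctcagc
Erap1, chr13:74639603-74639852, plus strand: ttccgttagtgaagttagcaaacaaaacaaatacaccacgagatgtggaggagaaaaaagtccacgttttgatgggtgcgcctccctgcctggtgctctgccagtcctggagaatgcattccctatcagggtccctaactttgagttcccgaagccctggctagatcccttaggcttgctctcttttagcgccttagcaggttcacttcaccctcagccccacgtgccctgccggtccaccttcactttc

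The CCAAT box (CCAAT), bound by NF-Y, was in 7 of the 8 promoters, all but Erap1, against 33.8% of all promoters. The CRE core (TGACG), part of the module at which Nlrc5 is recruited, was in 4 (H2-K1, H2-D1, B2m and Tap1), against 17.8%. The kappa-B motif of the class I enhancer (GGGGA, any 2 bases, CCC) was in H2-K1, H2-D1 and Calr, against 1.41%, and in H2-K1 its matches start 127, 111 and 110 bases before the RefSeq start, the last 2 being both strands of 1 overlapping site. An interferon-stimulated response element core (GAAA, any 2 bases, GAAA) was in B2m, 139 bases before the start, and in H2-T23, against 2.98%. The gamma-activated sequence (TTCNNNGAA) was in none, against 7.02%. Only these exact patterns were searched, so that a promoter without a match, H2-K1 and H2-D1 included, may still hold a variant of an interferon element.

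Calr was the 1 gene of the 8 with a match to the CTCF core (CC, any 3 bases, AG, any 2 bases, GGC), 187 bases before its start, against 7.17% of all promoters. This match overlaps the kappa-B match in the same promoter, 179 bases before the start, and the 2 form the run of capitals in the sequence above. The Erap1 window, which lies inside the GENCODE gene, had no match to any of the 6 motifs. Binding of CTCF was not measured in these data.

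Of the 10 genes, 6 lie on chromosome 17 of GRCm38, in or beside the MHC. They are Tapbp (33915899 to 33929292, plus strand), H2-K1 (33996017 to 34000347, minus strand), Tap1 (34187553 to 34197225, plus strand), Tap2 (34203527 to 34216321, plus strand), H2-D1 (35262730 to 35267499, plus strand) and H2-T23 (36029773 to 36032855, minus strand). None of these 6 was called in either culture. The share of all tested genes that limma called was 18.6% under CD3/CD28 stimulation and 0.0334% under LPS/IL4 stimulation. At such shares, 6 genes without a call do not set the MHC apart from other regions. B2m lies on chromosome 2 (122147686 to 122153083, plus strand), and Nlrc5 and Calr lie on chromosome 8, as Ctcf does. Tapbp overlaps Zbtb22 on the same strand, and Tap2 and Nlrc5 overlap minor transcripts on the other strand, whose reads cannot be told apart from theirs.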

How the data were processed

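RNA of 12 libraries (4 groups of 3) was measured. The authors trimmed reads with Cutadapt after base calling with CASAVA 1.8, estimated gene counts with RSEM 1.17 on GRCm38 and deposited 1 table of CPM normalized with edgeR. The deposited CPM were whole multiples of the value of 1 read (within 0.01 of a read), which gave recovered read counts of 6934344 to 28130440 per library. How the means of both cultures came to be nearly equal is not given in the sources used here. Recovered reads may therefore differ from the reads as first counted. GENCODE annotation named 12586 of 12699 genes.

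Per culture, genes reaching 1 CPM in 3 or more of 6 libraries were tested with limma 3.58.1 (R 4.3.3) on log2(CPM + 0.5) with an intensity trend and Benjamini-Hochberg adjustment over all genes (threshold 0.05), and the interaction over 12 libraries. Fold changes are on the log2(CPM + 0.5) scale, CTCFfl/fl over CTCFfl/+, which understates changes of low genes. As alternatives, the pseudocount was set to 0.1 or 1, scaling was by median of ratios or quantiles, and the fit was repeated with no filter, a mean of at least 5 CPM, no trend, a replicate block, 1 fit of all libraries, edgeR 4.0.16 and DESeq2 1.42.0 on recovered reads, and leaving out each library. Exact tests used scipy 1.17.1. The code was tested on simulated data.

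The genes and lists were chosen with earlier results of these data known. Named were all 10 genes and Ctcf, and of each other list every called gene where at most 4 were called, otherwise the 4 with the smallest adjusted p, or the 1 with the smallest p where none was called. Some items are not reported here.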

Additional observations from a re-analysis of the deposited data

Results flagged for a closer look

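The effect of CTCF loss on Nlrc5 differed between the cultures by the interaction test, with a difference of 0.43 on the log2 scale (CD3/CD28 effect minus LPS/IL4 effect, adjusted p = 0.0262 from limma). The effect on Tap1 differed between the cultures by the same test, with a difference of 0.38 (adjusted p = 0.0312 from limma). Nlrc5 was called in 16 of 22 alternatives and Tap1 in 12 of 22.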

How the results depend on the processing

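Erap1 in CD3/CD28 cultures was called under all 17 alternatives, and none of the 10 genes was called in LPS/IL4 cultures under any. The number of the 10 genes called in CD3/CD28 cultures was 1 without the intensity trend and 1 to 2 without single libraries, and for the difference between cultures it was 0 without the trend, 1 with the replicate block, where Tap1 lost its call (adjusted p = 0.0996 from limma), and 0 to 3 without single libraries. Over all genes, calls in CD3/CD28 cultures numbered 1092 without the trend and 1005 to 2321 without single libraries, against 2250. In LPS/IL4 cultures they numbered 7 with a pseudocount of 1, 2 under quantile normalization, 2 without a filter, 1 without the trend, 18 with the replicate block, 37 in DESeq2 and 2 to 75 without single libraries, against 4. For the difference between cultures they numbered 388 without the trend and 405 to 989 without single libraries, against 897. The cause was not tested. Signs turned only for fold changes near 0. Under quantile normalization the log2 fold change was -0.0455 for H2-K1 in CD3/CD28 and 0.0158 for Tapbp in LPS/IL4 cultures, and the difference between cultures was -0.00272 for H2-K1 and -0.0158 for B2m. Without single libraries Tap2 in CD3/CD28 ranged from -0.13 to 0.0334, and in LPS/IL4 Tapbp ranged from -0.0441 to 0.0308 (0.0308 and 0.00452 where it turned), H2-K1 from -0.0706 to 0.00983 (and 0.00439), and H2-D1 from -0.11 to 0.00706. Libraries of the same replicate number were not treated as paired in the main fit. Their correlations were 0.0585, -0.116 and -0.00185 in CD3/CD28 and 0.369, 0.135 and -0.122 in LPS/IL4 cultures. For libraries of different number they ranged from -0.123 to 0.11 in CD3/CD28 and from -0.34 to 0.278 in LPS/IL4 cultures. The highest LPS/IL4 value was thus of a same-number pair, and these values do not settle whether libraries were paired. The replicate block gave 1870 calls in CD3/CD28 cultures and 604 for the difference between the cultures.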
